A study of Mus musculus with 8 samples.

Results

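Macrophage transcripts were examined in RNA from mouse knee cartilage with and without surgical joint destabilisation. The genes were 10 widely used markers of tissue and marrow macrophages (Csf1r, Adgre1, Cd68, Lyz2, C1qa, C1qb, C1qc, Mrc1, Marco and Cd163), found by symbol among 50462 Ensembl gene identifiers in the table of estimated counts. All 10 had an identifier. All samples came from wild-type male C57Bl/6J mice, and each was a cap of medial knee cartilage. The naïve group was 4 mice taken at day 0, at 11 weeks of age and without surgery. The DMM group was 4 mice taken at day 42, at 17 weeks of age, after destabilisation of the medial meniscus, an operation in which the medial meniscus tibial ligament is cut, here in the left knee, and osteoarthritis then develops. There was no sham-operated group among the libraries, so surgery and 6 weeks of ageing cannot be told apart. Each library was from 1 mouse, and totals ran from 12479443 to 16548002 estimated counts.

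Macrophages are phagocytes that take up dying cells, debris and old red cells. They need signalling through the receptor encoded by Csf1r, whose ligands are CSF1 and IL-34. Resident macrophages of joint lining, bone marrow and other tissues differ in the scavenger receptors they carry, and many make the 3 chains of C1q, which starts the classical complement pathway. Articular cartilage itself has no blood vessels, whereas the bone and marrow beneath it hold many macrophages and their precursors.

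The labels call the cell type chondrocyte. All 10 listed chondrocyte markers were detected, and Acan, the main cartilage proteoglycan, averaged 6962 normalised counts in naïve and 14809 in DMM libraries. Transcripts of marrow and blood were abundant as well. The 12 neutrophil-lineage markers summed to 130922 to 195959 normalised counts in naïve and 57532 to 118037 in DMM libraries. The 8 erythroid markers summed to 142717 to 282696 in naïve and 73448 to 159108 in DMM libraries. The libraries thus held transcripts typical of marrow beside those of cartilage, and in such bulk RNA fewer cells of a type and less RNA per cell cannot be told apart.

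Many macrophage genes carry sites for PU.1, the transcription factor encoded by Spi1, with GAGGAA as the core of its site. RefSeq promoter windows (GRCm38.p6, 250 bases before to 50 after the start) were at hand for 7 of the 10 genes, and GAGGAA or its reverse complement TTCCTC occurred in 5 of these 7 (71.4%), against 9289 of 32851 windows of all genes (28.3%). Lyz2 and Cd163 held neither word in their windows. Any link between the word and changes in level was not tested. For the other 5 genes the match nearest the start is shown. The motif is in capitals, and the sequence runs 5′ to 3′ on the strand of the gene.
C1qb, chr4:136886213-136886242, minus strand: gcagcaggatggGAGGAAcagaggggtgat
C1qc, chr4:136893090-136893119, minus strand: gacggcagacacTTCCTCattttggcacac
Cd68, chr11:69666378-69666407, minus strand: tttcttaccaatGAGGAAagggcttcccat
Mrc1, chr2:14229367-14229396, plus strand: aaaagggacagcTTCCTCtgtcctcctttt
Marco, chr1:120505153-120505182, minus strand: tgaagtgggtcaGAGGAAgatttcctgggg
The C1qb word began 30 bases before the start and was the closest of the 5, followed by Mrc1 at 35 bases. Mrc1 held 3 matches in all. A match describes these letters and is not a measured binding site.

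Of the 10 macrophage genes, 9 had counts enough for a test, and 2 of these 9, Lyz2 and Cd163, were lower in DMM than in naïve cartilage. A gene was called when its DESeq2 adjusted P was at or below 0.05 and its fold change was at least 1.5. None was called higher by DESeq2 or edgeR, and at an unadjusted P under 0.05 none was higher and 3 were lower, Adgre1 being the third. Over the 17760 genes tested, 5.92% were called lower and 7.75% higher, 13.7% in all. The median log2 fold change was -0.18 over the 9 macrophage genes and -0.02 over all genes tested. The groups did not overlap for the same 2 of 9 genes. Of all genes tested, 10.3% lay wholly lower in DMM libraries, and 22.2% did not overlap in either direction.

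**Figure D1:**
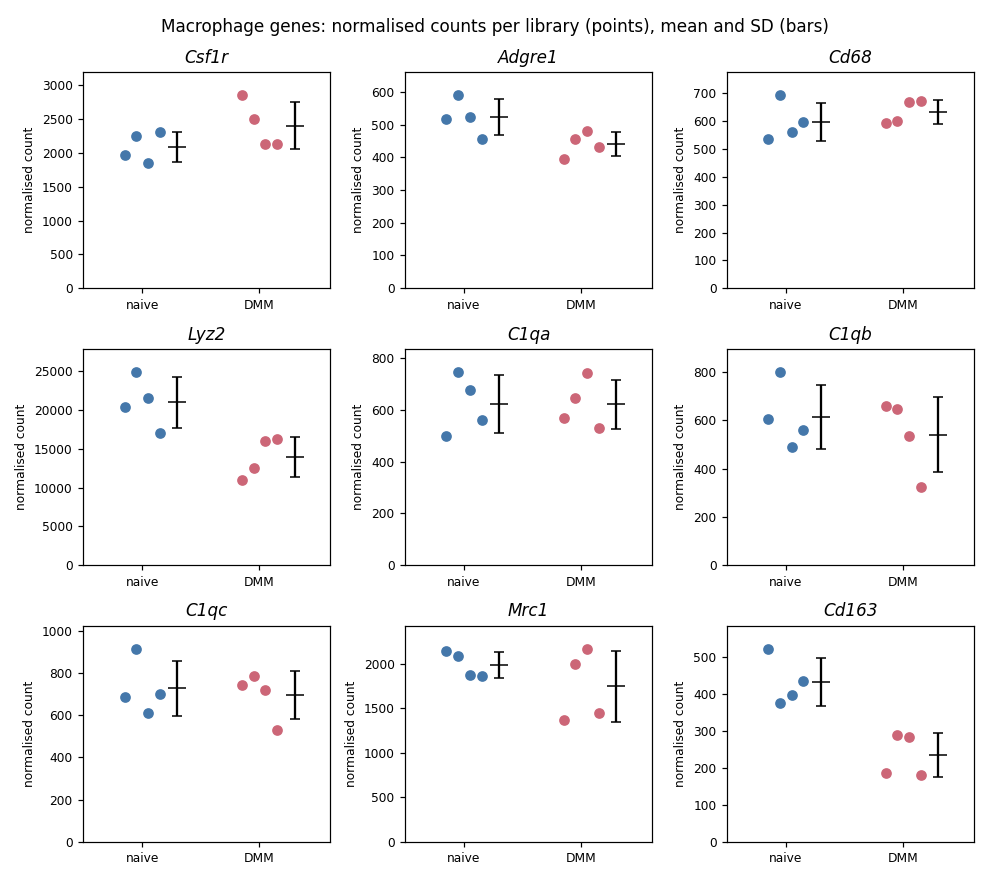
Normalised counts (vertical axes, linear and starting at 0) of the macrophage genes, with 1 point per library, 4 naïve and 4 DMM, and bars at the group means ± SD. The naïve and DMM points separate for Lyz2 and Cd163 and overlap for the other tested genes.

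Cd163 encodes the haemoglobin-haptoglobin scavenger receptor of tissue macrophages (chr6:124304656-124330527, plus strand, GRCm38). Its normalised counts were 523, 376, 397 and 435 in naïve libraries 1 to 4 and 187, 289, 284 and 182 in DMM libraries 1 to 4. Every DMM library lay below every naïve library. The mean went from 433 ± 64.9 to 236 ± 59.0 (SD, n = 4 each), a change of -45.7%. On the log2 scale Cd163 fell by 0.88 (SE 0.19, 95% interval -1.26 to -0.50, DESeq2 adjusted P = 0.000127). It was called lower with each of the 8 libraries left out in turn, at log2 fold changes from -0.99 to -0.78.

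Lyz2 encodes lysozyme M, an antibacterial enzyme made by macrophages, monocytes and neutrophils, and its promoter drives a widely used myeloid Cre line. The gene lies at chr10:117277331-117282321 on the minus strand. It gave 20396, 24947, 21591 and 17055 normalised counts in the naïve libraries and 11013, 12482, 16007 and 16254 in the DMM libraries. The lowest naïve library was thus just above the highest DMM library. The mean went from 20997 ± 3259 to 13939 ± 2603 (SD, n = 4 each), and the log2 fold change was -0.59 (SE 0.16, 95% interval -0.91 to -0.28, DESeq2 adjusted P = 0.00242). This change sat at the edge of the fold threshold. With naïve 2, naïve 3, DMM 1 or DMM 2 left out the log2 fold change was -0.50, -0.58, -0.49 and -0.54, under 1.5-fold, with DESeq2 adjusted P between 0.0125 and 0.0192. It was also under 1.5-fold in edgeR (-0.57, adjusted P = 0.0372).

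Lyz1, the lysozyme P gene 5.48 kb away on the same chromosome, is similar in sequence, and 32.8% of the 31-base words in Lyz2 transcripts occur in Lyz1. Lyz1 averaged 32.8 ± 3.36 normalised counts in naïve and 32.3 ± 13.1 in DMM libraries (log2 fold change -0.02, DESeq2 adjusted P = 0.983). The ratio of Lyz1 to Lyz2 counts was 0.00127 to 0.00462 over the 8 libraries. The lysozyme signal was therefore assigned almost wholly to Lyz2 in both groups, though how the estimate split shared reads could not be checked.

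Neutrophil-lineage markers fell in the same libraries as Lyz2, with 11 of 12 called lower and a median log2 fold change of -0.86. Over all genes tested 5.92% were called lower. The neutrophil count was 8 in edgeR, with scaling by total count and without DMM 1. It was 8 to 12 with single libraries left out. S100a9, an abundant neutrophil calcium-binding protein, averaged 39110 ± 8225 in naïve and 21782 ± 7219 in DMM libraries (log2 fold change -0.84, DESeq2 adjusted P = 0.00244). Lyz2 and S100a9 ranked the libraries alike in 6 of 6 pairs of naïve libraries and in 5 of 6 pairs of DMM libraries. Lyz2 and Mpo, the myeloperoxidase gene of neutrophil precursors, did so in 4 of 6 naïve and 6 of 6 DMM pairs. The ratio of Lyz2 to the summed neutrophil list was 0.119 to 0.130 in naïve and 0.138 to 0.191 in DMM libraries. The ratio to S100a9 alone was 0.509 to 0.581 in naïve and 0.564 to 0.824 in DMM libraries, and those ranges overlapped. Lyz2 was thus lower in DMM cartilage by a smaller factor than the neutrophil markers together were. The part that neutrophils had in the Lyz2 result was not tested.

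Erythroid markers, typical of marrow, were lower as well, with 7 of 8 called, where 5.92% of all genes tested were called lower. The erythroid count was 5 without naïve 1, DMM 1 or DMM 4 and with a replicate block. It was 8 without DMM 3. Cd163 and Klf1, a transcription factor of red-cell precursors, ranked the libraries alike in 2 of 6 pairs in each group. Cd163 and Hba-a1, a globin gene, did so in 2 of 6 naïve and 4 of 6 DMM pairs. The ratio of Cd163 to Klf1 was 0.334 to 0.743 in naïve and 0.478 to 0.891 in DMM libraries, and these ranges overlapped. The DMM library with the highest erythroid sum, DMM 3, had 284 normalised counts of Cd163, between DMM 2 with 289 and DMM 1 with 187. The part that marrow content had in the Cd163 result was not tested.

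Csf1r, the receptor that macrophages and their precursors depend on, was detected in every library. It gave 1963, 2243, 1848 and 2311 normalised counts in naïve and 2856, 2502, 2134 and 2128 in DMM libraries. It was not called, at group means of 2091 ± 221 and 2405 ± 348 (SD, n = 4 each). Its log2 fold change was 0.20 (95% interval -0.06 to 0.46, DESeq2 adjusted P = 0.295). DMM 1 and DMM 2 were above every naïve library, and the other DMM libraries lay inside the naïve range. Some 15.0% of the 31-base words of Csf1r transcripts occur in other genes, mostly Hmgxb3, which overlaps it on the opposite strand, so the levels of Csf1r and, with a larger shared part, Lyz2 are less certain than those of the other genes.

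Adgre1, which encodes the F4/80 antigen of mature mouse macrophages (chr17:57358691-57483527, plus strand), leaned lower without passing the test. Its normalised counts were 518, 591, 524 and 456 in naïve and 395, 456, 479.9 and 431 in DMM libraries. Naïve 4 lay within the DMM range and the other naïve libraries lay above it. The log2 fold change was -0.25 (SE 0.12, 95% interval -0.49 to -0.002, DESeq2 adjusted P = 0.147).

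Cd68, a lysosomal membrane glycoprotein of phagocytes (chr11:69664213-69666153, minus strand), was at like levels in both groups. Normalised counts were 536, 694, 562 and 596 in naïve and 595, 599.8, 668 and 674 in DMM libraries. All DMM libraries were inside the naïve range. The log2 fold change was 0.09 (95% interval -0.14 to 0.33, DESeq2 adjusted P = 0.662).

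C1qa, C1qb and C1qc encode the A, B and C chains that assemble into C1q, and they lie beside each other on the minus strand of chromosome 4 within 18.7 kb (C1qb at chr4:136880129-136886187, C1qc at chr4:136889804-136893065 and C1qa at chr4:136895917-136898803). C1qa had 499.5, 748, 679 and 560.1 normalised counts in naïve and 567, 648, 743 and 531 in DMM libraries. C1qb had 604, 801, 491 and 561 in naïve and 658, 646, 534 and 324 in DMM libraries. C1qc had 689, 915, 611 and 698 in naïve and 742, 785, 721 and 529.8 in DMM libraries. Naïve 2 was the highest library for each of the chains, and the groups overlapped for all of them. DMM 4 was the lowest library for C1qb and C1qc but not for C1qa.

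Group means were close for each chain. For C1qa the log2 fold change was 0.004 (95% interval -0.32 to 0.33, DESeq2 adjusted P = 0.992). For C1qb it was -0.18 (-0.62 to 0.26, adjusted P = 0.630), and this interval reaches past 1.5-fold. For C1qc it was -0.07 (-0.39 to 0.26, adjusted P = 0.830). The sign for C1qa and C1qc was not stable, since it turned with 4 and 2 of the 8 libraries left out, respectively, and C1qc also turned under scaling by total count. Per kilobase of the longest coding transcript, the highest and lowest chain of a library differed by 1.06 to 1.71 times. The count ratio of C1qa to C1qb was 0.827 to 1.38 in naïve and 0.861 to 1.64 in DMM libraries, with the widest imbalance in DMM 4.

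Mrc1 encodes the mannose receptor CD206, an endocytic lectin of resident macrophages (chr2:14229392-14332057, plus strand). It gave 2143, 2081, 1869.7 and 1855 normalised counts in naïve and 1368, 1993, 2167 and 1444 in DMM libraries. DMM 1 and DMM 4 were below every naïve library, DMM 2 was inside the naïve range and DMM 3 was above it. The SD was 146 in naïve and 397 in DMM libraries. The log2 fold change was -0.19 (95% interval -0.50 to 0.13, DESeq2 adjusted P = 0.447).

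Marco, a scavenger receptor of marginal-zone and alveolar macrophages (chr1:120474538-120505024, minus strand), had a single count, in naïve 4, and 0 in the other 7 libraries. A count of 0 allows up to 0.181 to 0.240 CPM in these libraries (3 counts of the total, counting error only). Marco was thus not detectable at this depth in DMM cartilage and had no test. Of the 7 tested genes without a call, 6 had 95% intervals within 1.5-fold either way, and 6 had intervals that included no change, Adgre1 being the exception.

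**Figure D2:**
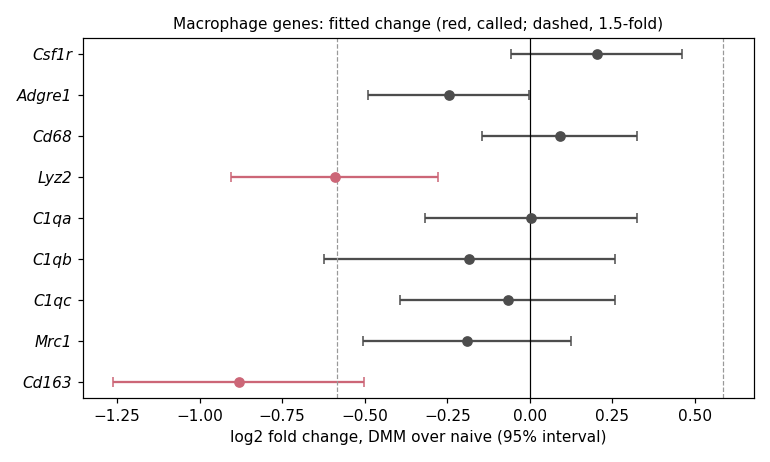
Log2 fold changes of DMM over naïve for the 9 tested macrophage genes (horizontal axis, points, with 95% intervals as bars), with lines at no change and at 1.5-fold either way. Cd163 at -0.88 and Lyz2 at -0.59 are the 2 genes called lower, and the intervals of the other genes include 0 except that of Adgre1, which ends just below it.

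Levels between genes were compared per kilobase of the longest coding transcript. In naïve libraries Lyz2 stood at 15956 ± 2476 normalised counts per kilobase. C1qc followed at 605 ± 109, C1qa at 598 ± 108, C1qb at 565 ± 122, Cd68 at 485 ± 56.5, Csf1r at 445 ± 47.0 and Mrc1 at 370 ± 27.2, and each of these overlapped its neighbour in the order. Adgre1 at 161 ± 17.0 and Cd163 at 97.5 ± 14.6 were each apart from the gene above. In DMM libraries Lyz2 was at 10592 ± 1978 and Cd163 at 53.0 ± 13.3 per kilobase. The macrophage genes took 0.170 to 0.199% of all counts in naïve and 0.137 to 0.174% in DMM libraries. Without Lyz2 these shares were 0.0486 to 0.0524% and 0.0476 to 0.0590%. DMM 1, DMM 2 and DMM 3, at 0.0548, 0.0590 and 0.0568%, lay above every naïve library, and DMM 4, at 0.0476%, lay below all of them. These are shares of total counts. With scaling by total count the median log2 fold change of genes averaging at least 10 normalised counts was 0.14, against -0.01 in the main analysis. Shares thus leaned higher in DMM libraries than normalised counts did.

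The balance within the macrophage genes was examined by the ratios of all 36 pairs of the 9 tested genes. Ratios do not depend on the scaling of libraries. The groups did not overlap for 8 of 36 ratios, fewer as a share than the 31.3% of all pairs among 11029 tested genes averaging at least 100 normalised counts. Cd163 was in 6 of the 8. The count was 13 without naïve 4 and 14 without DMM 4. Mrc1 over Cd163 was 4.09 to 5.53 in naïve and 6.89 to 7.92 in DMM libraries (log2 difference 0.69), and Csf1r over Cd163 was 3.75 to 5.96 and 7.52 to 15.3 (log2 difference 1.10). Cd68 over Cd163 was 1.02 to 1.84 in naïve and 2.07 to 3.70 in DMM libraries. The ratios of Adgre1, C1qa and C1qc to Cd163 were likewise higher in every DMM library, by 0.66, 0.91 and 0.83 in mean log2 ratio. The other 2 were Cd68 over Lyz2, at 0.0260 to 0.0350 and 0.0415 to 0.0541, and Adgre1 over Cd68, at 0.764 to 0.967 and 0.639 to 0.760. Lyz2 over Cd163 overlapped between the groups, at 39.0 to 66.3 in naïve and 43.2 to 89.1 in DMM libraries, as did C1qb over Cd163, at 1.15 to 2.13 and 1.78 to 3.54. Relative to 6 of the 8 other macrophage genes of the same library, Cd163 was thus lower in every DMM library than in any naïve library. These 6 ratios share the Cd163 counts and are not separate results. By a two-sided exact permutation test, each of the 8 reached the smallest P that 4 against 4 libraries allow, 0.0286, and none passed adjustment over the 36 ratios (lowest adjusted P = 0.129).

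Profiles over the 8 libraries were compared by the root-mean-square difference of log2 normalised counts, centred per gene, among genes averaging at least 100 normalised counts. The genes most like Lyz2 were Prdx5 (0.0535), Fcgr3 (0.0545), Lcp1 (0.0576), Pygl (0.0591) and Glrx (0.0654), against a median of 0.382 over 11038 genes. Fcgr3 encodes an Fc receptor of myeloid and natural killer cells, and Lcp1 encodes the leukocyte actin-bundling protein L-plastin. The genes most like the mean of the C1q chains were Mrps7 (0.0556), Tmem189 (0.0834), Rbm15b (0.0858), Tcof1 (0.0904) and Ppp2r5b (0.0914), where the median was 0.293. Those most like Csf1r were Ubac2 (0.0470), Btbd6 (0.0521), Endov (0.0546), Rad52 (0.0689) and Clip2 (0.0727), against a median of 0.291. The centred profiles themselves had a root mean square of 0.370 for Lyz2, 0.229 for the C1q mean and 0.185 for Csf1r. Among the genes nearest to Lyz2 only Fcgr3 was on a list of myeloid genes, and none of the 10 genes nearest to Csf1r or C1q was. These are descriptions over 8 libraries that include both groups.

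**Figure D3:**
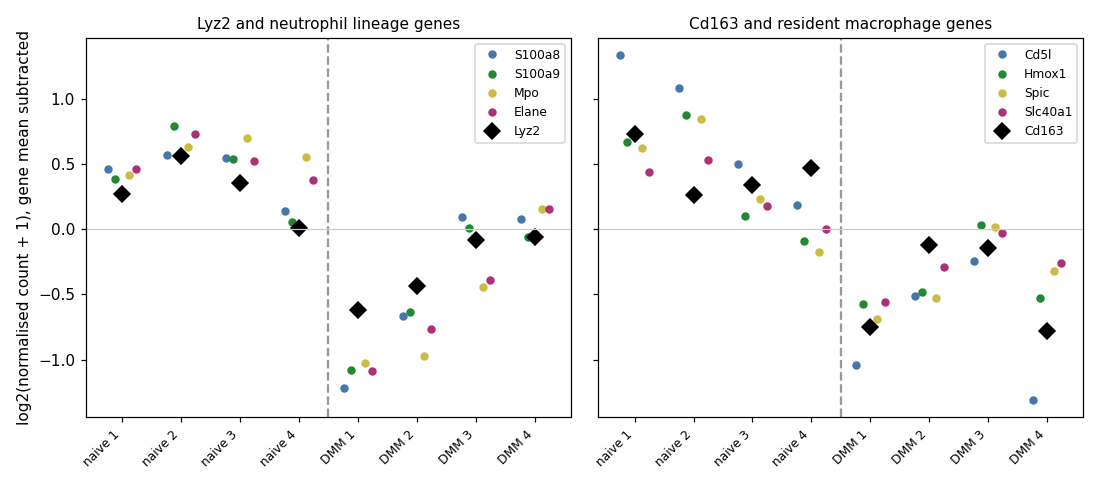
Log2 of the normalised count + 1 minus each gene's mean over the 8 libraries (vertical axes), by library (horizontal axes), for Lyz2 (diamonds) with 4 neutrophil-lineage genes on the left and Cd163 (diamonds) with 4 resident macrophage genes on the right. Lyz2 and Cd163 lie above their means in all naïve libraries and below them in all DMM libraries, and Lyz2 lies nearer to its mean than the neutrophil genes do in DMM 1 and DMM 2.

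A wider list of 13 genes of resident macrophages held 4 genes called lower and none called higher, with a median log2 fold change of -0.32. Cd5l encodes a secreted scavenger protein of tissue macrophages. Its normalised counts were 293, 246, 164 and 132 in naïve and 55.6, 80.6, 97.1 and 46.0 in DMM libraries, with no overlap. On the log2 scale Cd5l fell by 1.58 (SE 0.30, DESeq2 adjusted P = 5.99e-06) and was called with each library left out. Timd4, a receptor for phosphatidylserine on dying cells, was near its detection limit, at 33.4, 17.3, 26.8 and 31.7 in naïve and 0, 0, 8.23 and 1.81 in DMM libraries (log2 fold change -3.39, adjusted P = 9.14e-05). With 6 of the 8 libraries left out in turn it had no adjusted P.

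Hmox1, which breaks down haem, had 1145, 1322, 772 and 676 normalised counts in naïve and 482, 514, 734 and 499 in DMM libraries (log2 fold change -0.81, DESeq2 adjusted P = 0.00269). Spic, a transcription factor of iron-recycling macrophages, had 166, 194, 126 and 95.2 in naïve and 66.3, 74.2, 109 and 85.7 in DMM libraries (log2 fold change -0.79, DESeq2 adjusted P = 0.0124). For both the groups overlapped, through DMM 3, and Spic lost its call without naïve 1, naïve 2 or DMM 1. In the list as a whole 2 genes were called without naïve 1 or naïve 2. The erythroid sum was also highest in DMM 3 among the DMM libraries, and its part in these results was not tested. Slc40a1, the iron exporter ferroportin, went from 1910.3 ± 316 to 1282 ± 189 (log2 fold change -0.57, DESeq2 adjusted P = 0.00205), under the fold threshold. Spic and Slc40a1 were named after their values were seen. Genes of other resident macrophages were at like levels, with log2 fold changes of -0.09 for Cx3cr1, a chemokine receptor of lining macrophages (adjusted P = 0.784), -0.02 for Trem2, a lipid receptor (adjusted P = 0.952), and -0.02 for Mertk, which takes up dying cells (adjusted P = 0.940), all also chosen after their values were seen.

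Of 18 genes of monocytes and myeloid cells at large, 2 were called lower and 9 passed the adjusted P alone, all of them lower, against 11.2% of all genes tested. Ly6c2, the surface antigen of classical monocytes, went from 1450.0 ± 161 to 763 ± 193 normalised counts (SD, n = 4 each, log2 fold change -0.93, DESeq2 adjusted P = 1.3e-05). Itgam, which encodes CD11b of monocytes, neutrophils and macrophages, went from 5002 to 3132 (log2 fold change -0.68, DESeq2 adjusted P = 0.000524). Without DMM 1 the list held 1 call, that of Itgam being lost, and without naïve 4 or DMM 4 it held 4. Fcgr3, Tyrobp and Fcer1g, which act in Fc receptor signalling, were among the genes that passed the adjusted P alone, as was Spi1.

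No gene of the colony stimulating factor axis was called among 6 tested of 8 by DESeq2 or edgeR, and at an unadjusted P under 0.05 there was 1 higher and 3 lower. Csf1, the main ligand of Csf1r, had a fitted log2 change of 0.17 (DESeq2 adjusted P = 0.330), and Il34, the other ligand, had 0.65 (adjusted P = 0.0683). By the adjusted P alone 2 genes of the list were lower, in both cases under the fold threshold and without overlap of the groups. Csf2ra, the ligand-binding chain of the GM-CSF receptor, went from 775 ± 55.5 to 569 ± 26.8 normalised counts (log2 fold change -0.45, DESeq2 adjusted P = 0.000229). Csf2rb, its signalling chain, went from 1265 ± 151 to 895 ± 50.1 (log2 fold change -0.50, DESeq2 adjusted P = 0.000304). These 4 genes were named after their values were seen. The list had 1 gene called higher, Il34, without naïve 1, without DMM 4 or with scaling by total count. In the main analysis the receptor of macrophages and both of its ligands were thus without a call, and that of Il34 depended on the setting.

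Transcripts of proteins that act with C1q moved in both directions. Of 10 listed genes of the C1 complex and classical pathway 7 were tested, 2 were called higher and 1 lower. C1s1, a protease of the C1 complex, had 201, 257, 271 and 307 normalised counts in naïve and 561, 368, 832 and 310.5 in DMM libraries (log2 fold change 1.0, DESeq2 adjusted P = 0.00266). Serping1, the inhibitor of that protease, went from 902 to 1592 normalised counts (log2 fold change 0.82, DESeq2 adjusted P = 0.00459), and it lost its call without DMM 3. C3, the central complement component, fell by 0.72 (adjusted P = 5.15e-05), a call lost with scaling by total count. Without naïve 4 or DMM 4, and with scaling by total count, 4 genes of the list were called higher, and without DMM 3 it was 1. These genes are also made by mesenchymal cells or neutrophils, and fibroblast markers rose in the same libraries, with 5 of 6 called higher, or 3 without naïve 1, DMM 1 or DMM 3. The remaining fibroblast marker, Pi16, passed the adjusted P alone and was lower. The part that these cells had was not tested.

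Of 10 other scavenger and lectin receptors, 2 were called higher. Mrc2, the collagen-binding relative of Mrc1 found mainly on mesenchymal cells, went from 1395 ± 241 to 2381 ± 241 normalised counts (log2 fold change 0.77, DESeq2 adjusted P = 3.93e-06). Colec12, a scavenger receptor of endothelial and stromal cells, went from 1705 to 2584 (log2 fold change 0.60, DESeq2 adjusted P = 0.00147), a call lost without naïve 1, naïve 2 or DMM 3. The list held 1 call without naïve 1 or naïve 2 and 3 calls without naïve 4 or DMM 4. It also held 3 under edgeR, TMM scaling and scaling by total count, where Stab1 was called higher. Stab1, a further scavenger receptor named after its values were seen, went from 889 ± 168 to 1323 ± 262. Its log2 fold change was 0.57 (DESeq2 adjusted P = 0.00878), under the fold threshold, and the groups overlapped. None of 13 lysosomal genes was called in either direction by DESeq2 or edgeR, 2 were higher at an unadjusted P under 0.05, 1 passed the adjusted P alone, and the median was 0.14. Of 9 activation genes 5 were tested and 1, Chil3, was called. Chil3, a chitinase-like protein of macrophages and neutrophils, went from 6537 ± 1517 to 3417 ± 1045 (log2 fold change -0.94, DESeq2 adjusted P = 0.000725). Its groups overlapped, with naïve 4 at 4309 below DMM 3 at 4414.

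**Figure D4:**
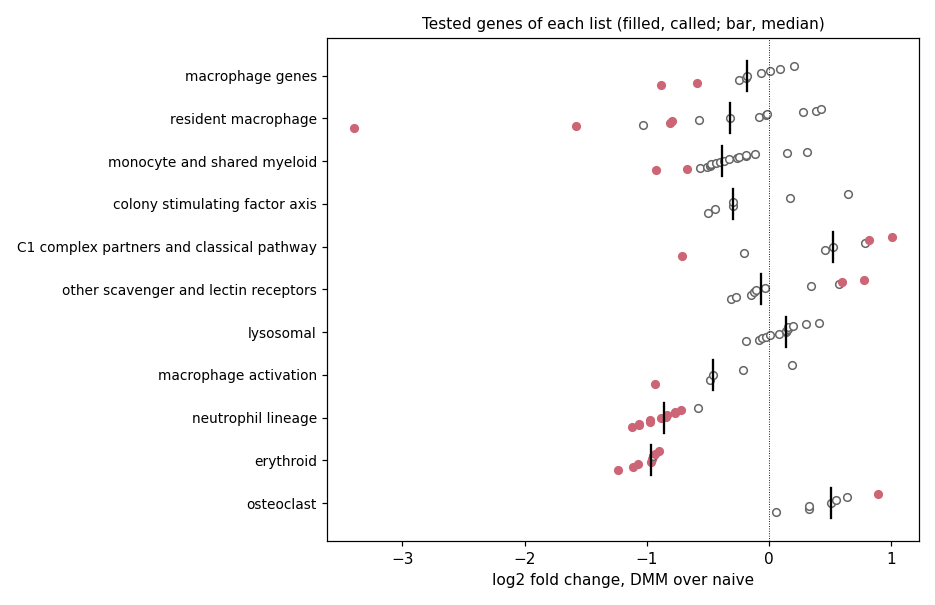
Log2 fold changes of DMM over naïve (horizontal axis) for each tested gene (points, filled where called) in the macrophage genes, 7 related lists and 3 marker lists (rows), with a bar at the median of each row. The erythroid and neutrophil rows lie to the left with medians of -0.96 and -0.86, the macrophage genes have a median of -0.18, and the osteoclast row lies to the right at 0.51.

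Markers of other cell types in the caps are given as counts of called genes, since many of them moved with the groups. Among osteoclast markers, which share the Csf1r lineage, 1 of 7 tested was called higher (median log2 fold change 0.51), and 4 were without naïve 4 or with scaling by total count and 3 without DMM 2. Their sums were 10829 to 16771 normalised counts in naïve and 12531 to 21409 in DMM libraries. All 6 osteoblast and osteocyte markers, 5 of 10 chondrocyte markers and 3 of 6 endothelial markers were called higher. The endothelial count was 1 without naïve 2 or DMM 2 and 2 without naïve 1 or DMM 4. None of 6 dendritic cell markers, 7 B cell markers or 2 tested skeletal muscle markers was called by DESeq2 or edgeR, 2 dendritic cell markers were lower at an unadjusted P under 0.05 and none of the others, and 1 of 6 T and NK cell markers was lower, a call lost in edgeR and without naïve 3. Without naïve 3 or DMM 4, 1 dendritic cell marker was called lower. None of the listed markers was at 0 in all libraries.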

How the data were processed

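RNA was sequenced from medial knee cartilage caps of 8 mice, 4 per group, with 1 library per mouse. The deposited values are estimated counts per Ensembl gene that the authors made with Kallisto and tximport. The genome build is uncertain, since the methods name GRCm38 with a later Ensembl release and the submitters' processing notes name GRCh38. The labels and the methods also name different library kits, and whether reads were counted by strand is not given in the sources used here. Of the values, 39.0% were not whole (tolerance 1e-6), and all were rounded for tests. Groups were compared in DESeq2 1.42.0 (R 4.3.3; Wald test, median-of-ratios scaling, Benjamini-Hochberg adjustment over all genes tested). The main design was written for raw counts and was run on the rounded estimates. Intervals are the log2 fold change ± 1.96 SE. Alternatives were edgeR 4.0.16, TMM and total-count scaling, no independent filtering, a filter of 10 counts in 4 samples, no fold threshold, a replicate block, and leaving out each library. Leaving out libraries for the gene-pair ratios was added after seeing the data. The replicate numbers did not mark pairs. Fits were tested on simulated data, in which both tools recovered most changed genes, and DESeq2 called more unchanged genes than its adjusted P threshold allows and more than edgeR did.

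The macrophage genes and all lists were chosen with earlier results of these data known. All macrophage genes are named, and of each pathway list up to 3 called genes with the smallest adjusted P. Coordinates are from the GENCODE annotation of GRCm38, and promoters from RefSeq. Symbols were found for 48855 identifiers. The sequence similarity of genes was measured as the share of 31-base words in annotated transcripts that occur in another gene.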

Additional observations from a re-analysis of the deposited data

Results flagged for a closer look

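In 5 of 55 groups of 4 libraries, 1 library stood apart from the other 3 by Dixon's test, where chance gives about 2.8. Marco was highest in naïve 4, at 1.13 normalised counts, and 0 in the other naïve libraries. The summed erythroid markers of the DMM group were highest in DMM 3, at 159100 normalised counts. The summed endothelial markers of the naïve group were lowest in 1 library, at 3410.0 normalised counts. The summed skeletal muscle markers had 1 high library in each group, at 461 in naïve and 1215 in DMM.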

How the results depend on the processing

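Cd163 was called lower under all 7 alternatives to the main analysis, at log2 fold changes from -0.90 to -0.74, and with each library left out. The 2 calls among the macrophage genes became 1 under edgeR, TMM scaling and scaling by total count, since Lyz2 then fell short of 1.5-fold (-0.57, -0.56 and -0.43 on the log2 scale). Leaving out single libraries gave 1 to 2 calls among the macrophage genes, 1858 to 2842 over the whole table (2429 in all) and 769 to 1247 lower (1052). Without a fold threshold 4010 genes passed, 1989 of them lower, and with scaling by total count 489 genes were called lower, where the median log2 fold change of genes averaging at least 10 normalised counts was 0.14 against -0.01 in the main analysis. The log2 fold change of C1qa turned sign without naïve 1, naïve 4, DMM 2 or DMM 3 and ran from -0.0920 to 0.104 with single libraries left out. That of C1qc turned sign under scaling by total count (0.0959) and without naïve 2 or DMM 4, and ran from -0.145 to 0.0598. The cause of these turns was not tested. The ratios of gene pairs without overlap numbered 8 to 14 with single libraries left out, with 13 without naïve 4 and 14 without DMM 4.

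Same-numbered libraries deviated from their group means with correlations of 0.05, 0.08, -0.16 and 0.10 over 11039 genes. With a replicate block the macrophage genes still had 2 calls, Lyz2 at -0.60 and Cd163 at -0.90, and 2081 genes were called over the whole table, while the resident macrophage list went from 4 calls to 2. Marco and other genes near 0 are limited by depth.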
